A study of Caenorhabditis elegans with 6 samples.

Results

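Histone genes encode the proteins around which DNA is wrapped in chromatin. Members were taken as the genes whose identifier maps in the WBcel235 annotation to a his, hil or htz symbol followed by a number, and 81 of the 46940 features in the count table met that rule. They comprised 64 core histone copies (17 of H2A, 16 of H2B, 15 of H3 and 16 of H4), 6 core variants, 9 linker histones and 2 short genes, his-39 and his-73, that could not be placed. Core copies were typed by their coding length, and the annotation does not state which of them are replication-dependent.

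Dimers of H2A with H2B and a tetramer of H3 and H4 form the nucleosome core, and linker histone H1 binds the DNA where it enters and leaves. In animals most core histones come from many near-identical intronless genes, transcribed mainly while DNA is replicated, whose mRNAs typically end in a stem-loop and not in a poly(A) tail. Variants such as H2A.Z and H3.3 are made outside S phase as well, and in worms as elsewhere are placed on chromatin by their own chaperones. The adult hermaphrodite keeps dividing cells only in its germ line, while oocytes load histones and their mRNAs for the embryo.

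Whole C. elegans of the wild-type strain N2, untreated and kept on agar plates at 20 °C, were sampled at day 10 (3 libraries) and as L4 larvae, the last larval stage (3 libraries). The deposited columns carry the prefix Ev before the age, and its meaning was not established here. The sources used here do not give the event from which day 10 is counted, or whether mothers were separated from progeny. No young adults were sampled, so a change from larva to adult and a change with adult age cannot be told apart. The labels do not name separate cultures for the libraries of an age. P-values here reflect only how far these libraries differ from each other, which may be technical.

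The L4 libraries held 19576201 to 23972794 counts and the day 10 libraries 23257607 to 25616846. Germ line, oocyte, muscle, intestine, epidermis and neuron genes were detected in every library. Most mixtures of these tissues would meet that, so it is no test of the label of whole worms. Between the ages these markers moved widely. The summed level of 4 oocyte and eggshell genes ran from 337 to 360.1 CPM (counts scaled to a common library total) in L4 and from 6502 to 9608 at day 10, that of 3 germ line genes from 768 to 776 and from 1893 to 2259, and that of 3 sperm genes from 290.4 to 297 and from 6.33 to 11.9. Summed levels of 2 body-wall muscle genes ran from 6439 to 7200 CPM in L4 and from 165 to 183 at day 10. Those of 2 intestine genes ran from 77.3 to 80.1 and from 10.5 to 24.4. Those of 2 epidermis genes ran from 293 to 318 and from 29.3 to 79.6, and of 3 neuron genes from 177 to 185 and from 278 to 302. Of the embryo markers, pes-10 had 0 counts in L4 and 6.17 to 12.1 CPM at day 10, and end-1, med-1 and sdz-1 were too low to test. The part of these shifts in the histone results was not tested, and in whole animals a change in the number of cells of a type and a change in RNA per cell cannot be told apart.

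Histone genes took a larger share of all counts at day 10. They held 0.147%, 0.138% and 0.138% of counts in the L4 libraries and 0.306%, 0.343% and 0.356% at day 10. Of the 81 members, 45 passed edgeR's filter on low counts. In edgeR's quasi-likelihood fit, with p adjusted by Benjamini-Hochberg over all 15956 genes tested and a threshold of 0.05, 19 of the 45 rose and 15 fell, which is 75.6%. The same test called 85.4% of all genes, 40.5% as higher and 45% as lower, so the members changed no more often than genes at large. The ages did not overlap for 37 of the 45, against 87.6% of all genes. The median log2 fold change was 1.03 over 9 tested linker histones and −0.09 over 30 tested core copies, beside −0.16 over all genes tested. Over 5 tested variants, of which 3 rose and 2 fell, with values from −5.76 to 2.42, it was 1.52. With no filter it was 0.13 and with DESeq2's Wald test 0.30, where his-69 enters, so it describes no common change. The median of the core copies ran from −0.54 with upper-quartile scaling to 0.07 with DESeq2's size factors. In the authors' deposited table, 33 of the 66 members with an adjusted p were under 0.05, against 54.6% of its features.

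Most of the increase lay in the H2A variant, the H3.3 genes and the linker histones. On the deposited FPKM scale, which divides counts by gene length and library total, summed levels went from 2067 ± 72.3 to 4392 ± 340 over all members (mean ± SD, n = 3; a sum with no test). The sum over the 9 linker histones went from 676 ± 45.7 to 1536 ± 123 FPKM, that of the 5 H3.3-type genes from 536 ± 11.9 to 1113 ± 86.7, and that of H2A.Z from 226 ± 6.40 to 1224 ± 133. The sum over the 64 core copies went from 626 ± 29.5 to 516 ± 3.00 FPKM. The sum over 3 of them, his-35, his-37 and his-41, went from 467 ± 3.69 to 299.8 ± 21.996 FPKM. Of these 3, his-37 changed most, from 262.4 ± 6.42 to 130.6 ± 7.65 FPKM. The sum over the other 61 went from 159.5 ± 25.9 to 217 ± 23.3, though of 27 tested among them 9 rose and 10 fell. The sources used here do not say whether RNA was selected for poly(A) tails, so levels of core copies against those of variants and linkers need not match the animals.

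The H2A.Z gene htz-1 (IV, 4446216 to 4446999 on WBcel235), the only H2A variant among the members, had the highest mean FPKM of all histone genes at day 10. It stood at 233, 219.9 and 224 FPKM in the L4 libraries and at 1086.5, 1234 and 1352 at day 10. Every day 10 library was far above every L4 library, and the spread within an age was small beside the gap. The log2 fold change was 2.42 ± 0.07 (SE; adjusted p = 7.67e-09), or 5.36-fold. H2A.Z replaces H2A near the starts of many genes, and its exchange is carried out by remodellers of the SWR1 type.

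The H3.3-type genes split, with 2 rising, 2 falling and 1 too low to test. The gene his-72 (III, 12367475 to 12369050), which encodes an H3.3, stood at 256, 267 and 258 FPKM in L4 and at 657, 785 and 868 at day 10. Its log2 fold change was 1.55 ± 0.10 (adjusted p = 2.59e-07). The gene his-74 (V, 12659704 to 12660330), an H3.3-type gene, stood at 95.5, 104 and 101 FPKM in L4 and at 312.4, 302 and 256 at day 10. Both genes were higher in every day 10 library than in any L4 library. For his-74 the log2 fold change was 1.52 ± 0.13 (adjusted p = 1.26e-06).

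The gene his-71 (X, 7981382 to 7982070), which also encodes an H3.3, moved opposite to his-72. It stood at 143, 147 and 142.4 FPKM in L4 and at 45.2, 53.8 and 56.8 at day 10, with no overlap, and fell by 1.49 ± 0.08 on the log2 scale (adjusted p = 2.39e-07). The gene his-70 (III, 4059715 to 4060119), an H3.3-type gene with no intron or UTR in the annotation, stood at 31.8, 30.7 and 30.2 FPKM in L4 and at 0.297, 0.151 and 1.31 at day 10. The L4 libraries lay within a narrow range, while the day 10 values rested on 4, 2 and 16 counts. The log2 fold change was −5.76 ± 0.31 (adjusted p = 2.86e-06), and it was −7.0 without day 10 replicate 3, the library with most of those counts. Its neighbour his-69 (III, 4058360 to 4058743) held 16 counts over the L4 libraries and 8 over the day 10 libraries and was not tested.

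**Figure D1:**
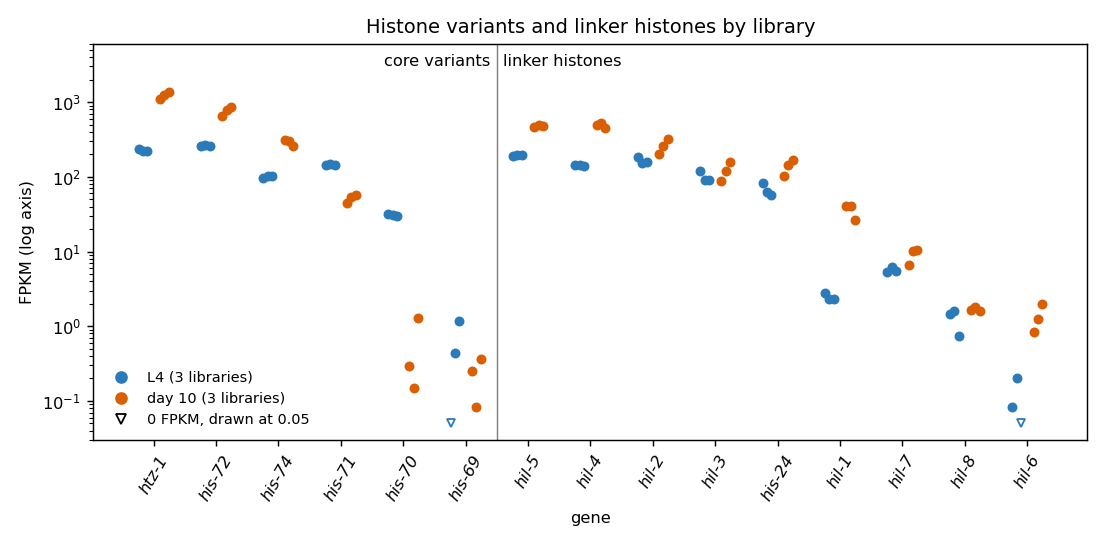
Deposited FPKM of each core variant and linker histone on a log axis, with 1 point per library, 3 for L4 and 3 for day 10; open triangles mark libraries at 0 FPKM, drawn at the foot of the axis. For htz-1, his-72, his-74, hil-4, hil-5 and hil-1 all day 10 points lie above all L4 points, for his-71 and his-70 all lie below, and for his-69, hil-3 and hil-8 the ages overlap.

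The make-up of the H3 and H2A pools, as FPKM summed over the members, differed between the ages. The share of his-72 in the FPKM of all H3 and H3.3-type genes was 45.2% ± 0.674 in L4 and 67.2% ± 4.08 at day 10 (mean ± SD, n = 3), while that of his-71 went from 25.0% ± 0.216 to 4.53% ± 0.171. The share of his-74 was 17.4% ± 0.707 in L4 and 25.6% ± 4.5 at day 10. In the H2A pool, htz-1 held 52.0% ± 0.884 in L4 and 86.0% ± 1.74 at day 10, and the core copy his-35 went from 36.7% ± 1.35 to 9.49% ± 1.54. The ages did not overlap for any of these shares, which are parts of a whole and were not tested one by one. They need not match the animals, as poly(A) selection and the counting of multiply matching reads are not given for the core copies. The H2A pool also leaves out htas-1, an H2A variant of sperm that is not a member.

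Of the 9 linker histone genes, 7 rose, which is 77.8%, and hil-3 and hil-8 did not pass the test, beside 85.4% of all genes called and 40.5% higher. Linker histones compact the chromatin fibre, and their worm mRNAs all carry an annotated 3′ UTR. The most abundant were hil-5 and hil-4. The gene hil-5 (I, 5774585 to 5775610) stood at 189, 193 and 195 FPKM in L4 and at 459, 490.1 and 474 at day 10, a log2 fold change of 1.29 ± 0.05 (adjusted p = 7.52e-08). The gene hil-4 (V, 4754313 to 4755453) stood at 145, 144 and 139 FPKM in L4 and at 493, 528 and 455 at day 10, a log2 fold change of 1.78 ± 0.09 (adjusted p = 9.21e-08). In both genes the ages were far apart beside the spread within each.

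The linker histones his-24, hil-2 and hil-3 varied more between libraries. The gene his-24 (X, 14490094 to 14491119), which encodes an H1 needed for silencing of germ line transgenes, stood at 82.1, 62.0 and 57.1 FPKM in L4 and at 104, 143 and 169 at day 10. L4 replicate 1 was the highest of its age and day 10 replicate 1 the lowest of its age, and the ages still did not overlap (log2 fold change 1.03 ± 0.24, adjusted p = 0.00187). The gene hil-2 (IV, 6294240 to 6295217) stood at 183, 152 and 156 FPKM in L4 and at 200.2, 257 and 324 at day 10, with the same libraries at the extremes. Its log2 fold change was 0.65 ± 0.19 (adjusted p = 0.00406), and with upper-quartile scaling it was 0.20 (adjusted p = 0.266). The gene hil-3 (X, 8159169 to 8160084) stood at 120.3, 90.7 and 91.4 FPKM in L4 and at 88.4, 121 and 157 at day 10, so the ages overlapped. Its log2 fold change was 0.26 ± 0.25 (adjusted p = 0.267), 0.45 without day 10 replicate 1 (adjusted p = 0.0274) and −0.19 with upper-quartile scaling. With DESeq2's Wald test it was 0.42 (adjusted p = 0.0456).

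Among the rarer linker histones, hil-1 (V, 14949777 to 14952799), which encodes the divergent H1.X, stood at 2.82, 2.35 and 2.33 FPKM in L4 and at 40.8, 40.9 and 26.8 at day 10. The lowest day 10 library was many times the highest L4 library, and the log2 fold change was 3.85 ± 0.24 (adjusted p = 4.48e-07). The gene hil-6 held 1, 3 and 0 counts in L4 and 13, 19 and 28 at day 10, a fitted log2 fold change of 3.57 ± 0.22 (adjusted p = 0.00119) that was 4.72 without L4 replicate 2. These counts are too few to fix its size. The gene hil-7 stood at 5.25, 6.12 and 5.44 FPKM in L4 and at 6.52, 10.1 and 10.6 at day 10, and its log2 fold change of 0.67 ± 0.20 (adjusted p = 0.0213) missed the threshold without L4 replicate 1 (0.60, adjusted p = 0.0786), L4 replicate 3 (0.63, adjusted p = 0.0744) or day 10 replicate 2 (0.59, adjusted p = 0.0605), and with upper-quartile scaling (0.22, adjusted p = 0.39). For hil-8, at 1.27 ± 0.454 and 1.68 ± 0.104 FPKM, the ages overlapped (log2 fold change 0.39 ± 0.27, adjusted p = 0.263).

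The core copies showed no common direction. Of 64, 14 had 0 counts in every library and 28 held under 10 counts in all. Of the 30 that passed the filter, 9 rose and 13 fell, 73.3% in all beside 85.4% of all genes. Of 7 tested H2A copies 1 rose and 3 fell, of 5 tested H2B copies 2 rose and 2 fell, of 9 tested H3 copies 2 rose and 5 fell, and of 9 tested H4 copies 4 rose and 3 fell. Rises and falls thus occurred in copies of each of the 4 types, which encode nearly the same protein within a type.

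Annotation bears on how single copies can be read. In the annotation, 36 core copies share a symbol with another, as near-identical copies, and the sources used here do not say how reads that match several places were counted. Of these 36, 26 held under 10 counts and 5 were tested, with adjusted p of 0.0958 to 0.909. Of the 28 copies with a symbol of their own, 25 were tested, of which 9 rose and 13 fell. Levels of single copies are therefore uncertain, and 0 counts at a copy need not mean that it is silent. When counts were summed over genes with the same symbol, a step chosen after seeing the data, 44 summed or single histone features were tested, of which 20 rose and 15 fell. Of 4 tested sums, that of his-47, his-57 and his-65, all H2A, passed, with a log2 fold change of 0.65 (adjusted p = 0.0322). In that sum his-57 held 38 of the 71 L4 counts and 62 of the 131 day 10 counts. It overlaps klp-12 on the other strand, so the source of its reads is uncertain.

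**Figure D2:**
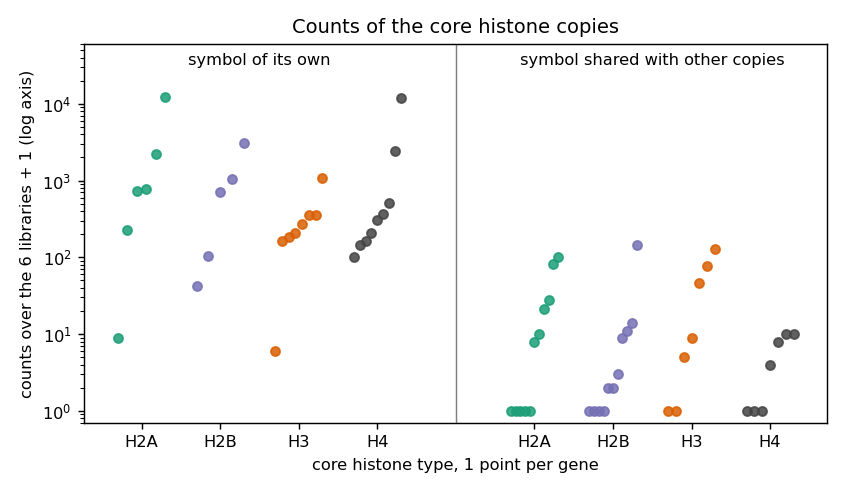
Counts summed over the 6 libraries, plus 1, on a log axis, with 1 point per core copy, by histone type, for copies with an annotation symbol of their own (left) and copies that share one (right). The highest sum is 12057 for his-35 on the left and 144 for his-66 on the right, where 14 copies held 0 counts.

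The core copies with the highest mean FPKM over the 6 libraries formed a group of 3 on chromosome V (9544659 to 9547607). At day 10 alone, his-60 (mean 51.4 FPKM) and his-68 (45.4) stood above his-41 of that group (35.5). The genes his-35 (H2A), his-41 (H2B) and his-37 (H4) each carry an intron and a 3′ UTR in the annotation. The other 61 core copies were counted with a single exon, and among them only his-57 has an annotated 3′ UTR. The gene his-37 (9547105 to 9547607) stood at 263, 256 and 269 FPKM in L4 and at 137, 133 and 122 at day 10, with every day 10 library far below every L4 library. It fell by 1.02 ± 0.08 on the log2 scale (adjusted p = 1.72e-06). It overlaps nstp-10 on the other strand, and the sources used here do not say whether reads keep their strand, so the source of its reads is uncertain.

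Its neighbours moved far less. The gene his-35 (9544659 to 9545288) stood at 162, 164 and 152 FPKM in L4 and at 141.9, 137 and 122 at day 10. The ages did not overlap, by a narrow gap, and the log2 fold change was −0.27 ± 0.10 (adjusted p = 0.0184). It missed the threshold with DESeq2's size factors (−0.10, adjusted p = 0.323) and without L4 replicate 2 (−0.24, adjusted p = 0.0629). It missed it with DESeq2's Wald test too (−0.1, adjusted p = 0.494), and in the authors' deposited table its adjusted p was 0.574. The gene his-41 (9545536 to 9546264) stood at 45.6, 43.4 and 45.5 FPKM in L4 and at 40.4, 34.4 and 31.8 at day 10, a log2 fold change of −0.35 ± 0.12 (adjusted p = 0.0262). That call was lost with DESeq2's size factors (−0.18, adjusted p = 0.21) and without L4 replicate 1 (−0.36, adjusted p = 0.0639), L4 replicate 2 (−0.37, adjusted p = 0.0596), L4 replicate 3 (−0.35, adjusted p = 0.07) or day 10 replicate 2 (−0.31, adjusted p = 0.0878). DESeq2's Wald test did not call his-41 either (−0.18, adjusted p = 0.308). The adjusted p of his-41 in the authors' deposited table was 0.364, and the gene overlaps C50F4.6 on the same strand, so reads from the shared stretch may come from either gene.

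Outside that group the summed FPKM of the 61 core copies was 189, 141 and 148 in L4 and 198, 209 and 243 at day 10, a small shift beside those of the variants. L4 replicate 1 lay close to the lowest day 10 library. By type, the summed FPKM outside the group went from 49.0 ± 5.42 to 64.4 ± 3.15 for H2A, from 19.3 ± 4.63 to 42.4 ± 4.32 for H2B, from 39.9 ± 8.68 to 30.0 ± 4.79 for H3 and from 51.3 ± 7.23 to 79.9 ± 12.1 for H4. These sums were not tested.

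The called copies were unevenly spread over the chromosomes. All 64 core copies fell into 13 groups of neighbours with at most 5000 bases between successive genes. On chromosome I both core copies rose, and on IV 7 of 13 tested copies rose and 1 fell, beside 40.5% higher and 45% lower over all genes. On II, which holds 13 copies, the only one tested was his-25 (H3), with a log2 fold change of −0.68 (adjusted p = 0.109). On V, outside the group of his-35, 8 of 9 tested copies fell, the other being his-1 with a log2 fold change of 0.10 (adjusted p = 0.883), and on X 1 of 2 fell. Copies of a neighbour group share sequence surroundings and are not independent of each other, and the relation to position was not tested.

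**Figure D3:**
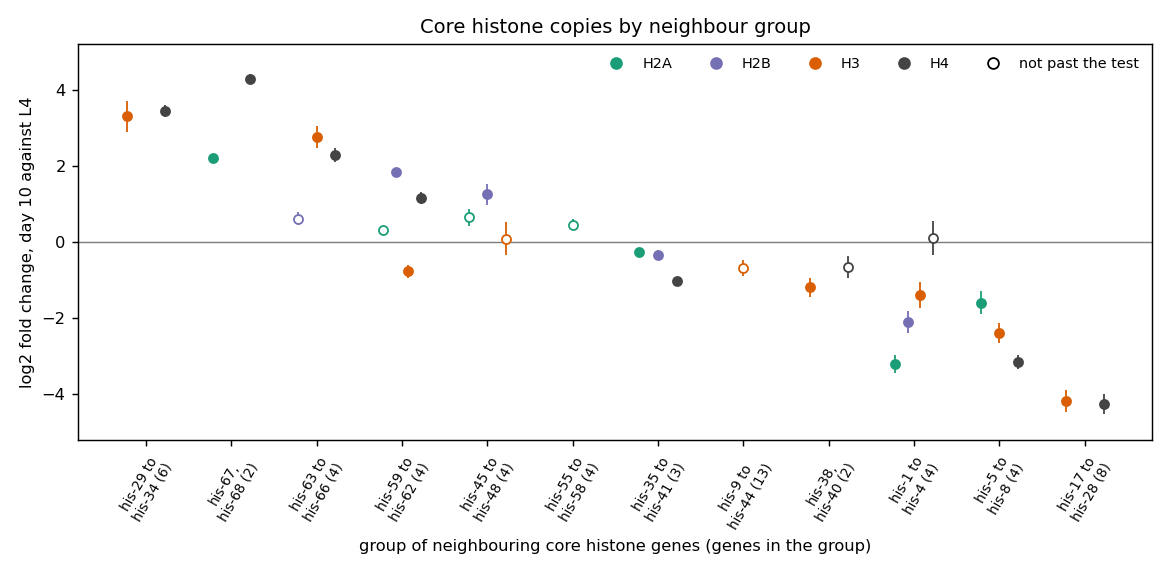
Log2 fold change of each tested core copy (day 10 against L4, with its standard error), by group of neighbouring genes, coloured by histone type, with open points for copies that did not pass the test. The groups of chromosomes I and IV lie mostly above 0, up to 4.28 for his-67, and those of V mostly below, down to −4.25 for his-18.

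The largest rises came from groups on I and IV. The H4 gene his-67 (I, 9988452 to 9988763) held 5, 3 and 7 counts in L4 and 125, 116 and 112 at day 10, and rose by 4.28 ± 0.13 on the log2 scale (adjusted p = 2.01e-06). Its neighbour his-68 (I, 9989132 to 9989515), an H2A gene, held 110, 116 and 114 counts in L4 and 622, 644 and 606 at day 10, and rose by 2.22 ± 0.06 (adjusted p = 2.44e-07). All day 10 libraries were far above all L4 libraries in both, though the L4 counts of his-67 are few, and without single libraries its log2 fold change ran from 3.93 to 4.62.

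The pair his-31 and his-32 on IV rose from a few counts. The H4 gene his-31 (8333672 to 8333983) held 2, 3 and 5 counts in L4 and 36, 46 and 50 at day 10 (log2 fold change 3.44 ± 0.15, adjusted p = 4.8e-05). That standard error is too narrow for such low L4 counts, as is that of his-67. The H3 gene his-32 (8334305 to 8334715) held 17, 9 and 2 counts in L4 and 84, 97 and 147 at day 10. Its log2 fold change was 3.296 ± 0.41 (adjusted p = 0.000326), and 4.10 without L4 replicate 1, the highest L4 library. The H3 gene his-63 (IV, 11406451 to 11406861) held 14, 4 and 12 counts in L4 and 72, 95 and 77 at day 10, with no overlap (log2 fold change 2.75 ± 0.29, adjusted p = 0.000212).

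Among the abundant copies on IV, the H4 gene his-60 (7487681 to 7487992) stood at 26.3, 21.0 and 21.1 FPKM in L4 and at 44.1, 47.9 and 62.2 at day 10. All day 10 libraries were above all L4 libraries, by 1.15 ± 0.15 on the log2 scale (adjusted p = 7.97e-05). The H2B gene his-62 (7486545 to 7486916), of the same group, stood at 4.26, 4.98 and 5.32 FPKM in L4 and at 16.97, 16.01 and 19.5 at day 10 (log2 fold change 1.83 ± 0.10, adjusted p = 1.31e-05). The H2B gene his-48 (IV, 11324745 to 11325116) stood at 12.8, 6.37 and 7.18 FPKM in L4 and at 21.1, 19.2 and 22.5 at day 10. L4 replicate 1 stood apart from its age and still below every day 10 library (log2 fold change 1.25 ± 0.27, adjusted p = 0.00139).

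The largest falls came from chromosome V. The H4 gene his-18 (8898228 to 8898539) held 58, 56 and 38 counts in L4 and 0, 1 and 8 at day 10, a log2 fold change of −4.25 ± 0.27 (adjusted p = 0.000348). Its head-to-head neighbour his-17 (8897582 to 8897992), an H3 gene, held 71, 49 and 52 counts in L4 and 3, 0 and 8 at day 10, a log2 fold change of −4.17 ± 0.29 (adjusted p = 0.000215). Day 10 replicate 3 held most of the day 10 counts of both, and without it the changes were −6.54 for his-18 and −5.37 for his-17. They were −3.66 for his-18 without day 10 replicate 1 and −3.58 for his-17 without day 10 replicate 2. The standard errors of both are too narrow for such low day 10 counts. The H2A gene his-19 of the same group held 27 counts over the L4 libraries and 0 at day 10. That is at least 10.6-fold lower against a bound of 3 counts over the pooled libraries. The gene was not tested here, and its adjusted p in the authors' deposited table was 0.000996. A group of 6 copies nearby, his-49 to his-54, had 0 counts in every library, and each of them shares its annotation symbol with a copy in the group of his-17.

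Higher-count copies on V fell as well. The H2A gene his-3 (16040808 to 16041191) held 241, 239 and 213 counts in L4 and 29, 19 and 41 at day 10, a log2 fold change of −3.20 ± 0.24 (adjusted p = 4.09e-06). The H4 gene his-5 (8535214 to 8535525) held 178, 139 and 135 counts in L4 and 17, 22 and 21 at day 10, a log2 fold change of −3.16 ± 0.18 (adjusted p = 3.28e-06). In both the lowest L4 library held several times the counts of the highest day 10 library. The share of his-5 in the FPKM of H4 genes went from 4.72% ± 0.964 to 0.794% ± 0.118, while that of his-60 went from 7.27% ± 0.790 to 24.4% ± 3.98 and that of his-37 from 83.7% ± 1.85 to 62.1% ± 4.90.

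**Figure D4:**
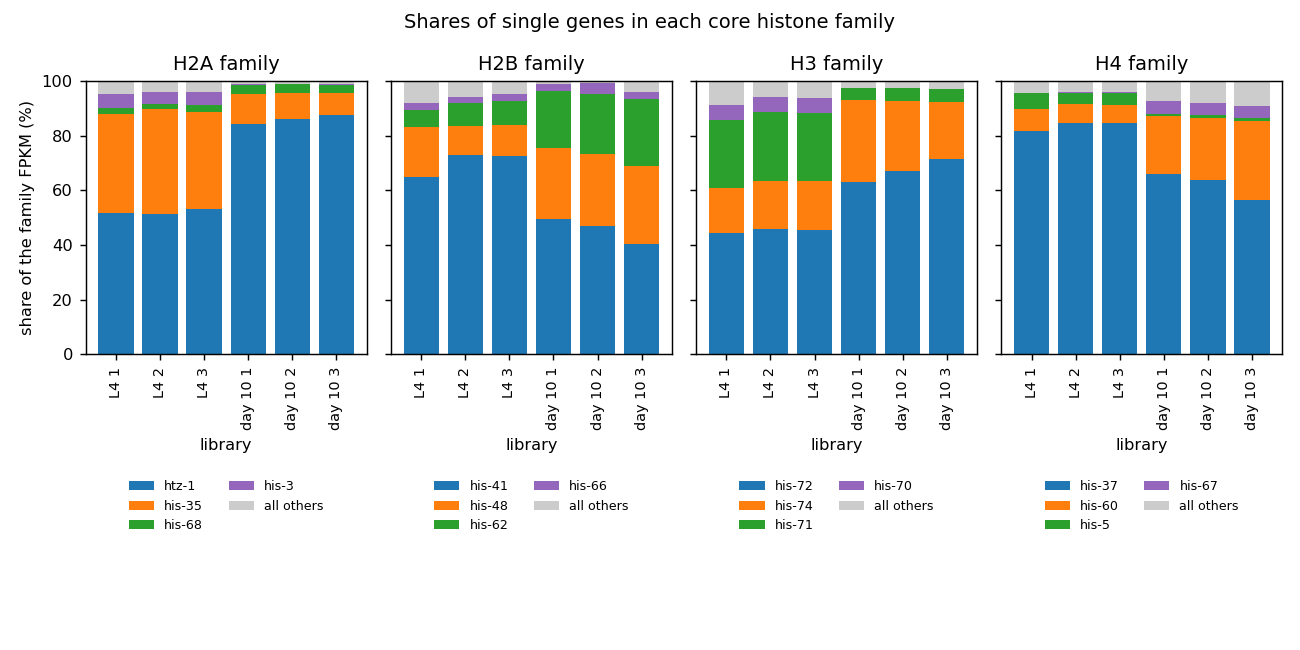
Share of single genes in the summed FPKM of each core histone family (percent), with 1 bar per library. The htz-1 share of the H2A family and the his-72 share of the H3 family are larger in all day 10 libraries, and his-37 of H4 and his-41 of H2B are smaller.

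Many core copies lie head to head, with 227 to 368 bases between the annotated genes, as 16 pairs of H2A with H2B, 14 of H3 with H4 and the pair his-67 and his-68. Of the 31 pairs, 12 had both partners tested and 8 had both called, beside 40.5% higher and 45% lower over all genes. In 7 the partners moved in the same direction as each other and in 1 in opposite directions. Pairs that agreed rose on I and IV and fell on V, where most tested copies fell. How often other neighbouring genes agree was not measured. Of the 7, the pair his-35 and his-41 lost both calls with DESeq2's size factors. In the pair of opposite directions, on IV, his-60 rose while the H3 gene his-59 fell by 0.76 ± 0.17 on the log2 scale (adjusted p = 0.00413). The gene his-59 stood at 16.2, 12.0 and 12.2 FPKM in L4 and at 7.27, 9.22 and 7.43 at day 10, without overlap. Both copies have a symbol of their own. This pair and the other core copies named beyond the rule for named genes were chosen after their values were seen.

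**Figure D5:**
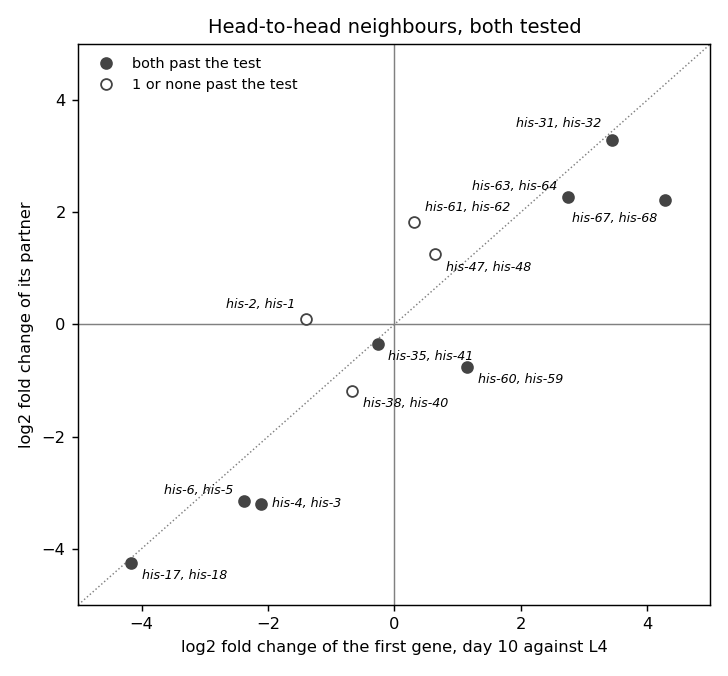
Log2 fold change (day 10 against L4) of the genes of the 12 head-to-head pairs with both genes tested, 1 partner on each axis, with filled points where both passed the test. Of the filled points, 7 lie in the quadrants of equal direction and his-60 with his-59 lies in that of opposite direction.

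Of the genes that could not be placed, his-39 had 0 counts in every library. The gene his-73, which overlaps W09H1.4 on the same strand, stood at 2.97, 2.74 and 2.66 FPKM in L4 and at 1.48, 1.40 and 3.26 at day 10, so the ages overlapped (log2 fold change −0.48 ± 0.23, adjusted p = 0.252). Without day 10 replicate 3 the change was −0.91 (adjusted p = 0.0373), and with upper-quartile factors it was −0.92 (adjusted p = 0.0473).

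Genes whose products make, carry and place histones were mostly higher at day 10. Of 19 genes of a histone deposition list, 18 rose and 1 fell, with a median log2 fold change of 2.06, beside 40.5% and 45% of all genes and a median of −0.16. The gene cdl-1, which encodes the stem-loop binding protein needed to process core histone mRNAs, stood at 70.6, 73.6 and 73.6 CPM in L4 and at 413, 428 and 459.6 at day 10 (log2 fold change 2.58 ± 0.05, adjusted p = 3.12e-09). The H3 and H4 chaperone gene nasp-2 went from 82.4 ± 2.54 to 1334 ± 45.6 CPM (4.02 ± 0.04, adjusted p = 3.33e-10), and its paralog nasp-1 rose by 2.22 ± 0.08 (adjusted p = 1.67e-08).

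Chaperones of both deposition routes rose. For chaf-1, of the CAF-1 complex that places H3 and H4 behind the replication fork, the log2 fold change was 2.43 ± 0.06 (adjusted p = 5.94e-09), and for its partner chaf-2 it was 1.75 ± 0.02 (adjusted p = 6.5e-09). For hira-1, which places H3.3 outside replication, it was 1.64 ± 0.06 (adjusted p = 3.82e-08), and for xnp-1, the ATRX homologue, 0.96 ± 0.04 (adjusted p = 3.29e-07). The ASF1 genes unc-85 and asfl-1 rose by 2.06 and 2.12, the FACT genes spt-16, hmg-3 and hmg-4 by 1.53, 1.38 and 2.54, and lin-53 and rba-1, which encode histone-binding proteins of several complexes, by 2.0 and 2.09, on the log2 scale. For ssl-1, an ATPase of the SWR1 family that exchanges H2A.Z, the change was 1.51 ± 0.06 (adjusted p = 4.6e-08).

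Centromeric histone genes rose too. The gene hcp-3, the worm CENP-A, went from 19.7 ± 1.25 to 104 ± 5.45 CPM (2.40 ± 0.07, adjusted p = 1.1e-08), its paralog cpar-1 from 7.74 ± 1.07 to 67.3 ± 11.4 CPM (3.12 ± 0.18, adjusted p = 1.9e-07), and knl-2, which loads CENP-A, rose by 1.84 ± 0.02 (adjusted p = 5.55e-09). The gene that fell was htas-1, which encodes an H2A variant of sperm. It stood at 17.6, 17.8 and 17.5 CPM in L4 and at 0.398, 0.807 and 0.697 at day 10, far below every L4 library (−4.79 ± 0.16, adjusted p = 1.13e-07), beside the lower sperm markers given above.

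All 8 genes of an S phase list rose, beside 40.5% of all genes, and their median was 2.45 on the log2 scale. The 3 germ line and 4 oocyte markers rose as well, with medians of 1.68 and 4.59, and their part in the rise of these lists was not tested. The clamp gene pcn-1 went from 85.9 ± 4.80 to 648 ± 28.2 CPM (2.92 ± 0.06, adjusted p = 2.54e-09), the ribonucleotide reductase gene rnr-2 from 87.9 ± 4.17 to 815 ± 46.5 CPM (3.21 ± 0.06, adjusted p = 1.79e-09) and the helicase gene mcm-7 from 79.8 ± 4.49 to 715 ± 27.5 CPM (3.16 ± 0.06, adjusted p = 1.62e-09). Fold changes of rnr-1, cye-1, cdk-2, mcm-2 and orc-1 lay between 1.87 and 2.46 on the log2 scale. The core copies outside the group of his-35 had a median log2 fold change of 0.10 over 27 tested, with 9 rising and 10 falling, beside these genes. Of the 61 copies in that set, 14 had 0 counts and 28 held under 10. Poly(A) selection and the counting of shared reads are not given, so these copies may be poorly measured. The difference between the lists was not tested.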

How the data were processed

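RNA from whole worms was measured in 6 libraries, each prepared, per the labels, with Illumina's TruSeq kit and an input of 1 µg RNA. The authors deposited raw read counts per gene, and the submitters' processing notes name CASAVA 1.8, HISAT2 and HTSeq. Genome build, annotation and the settings for strand and multiply matching reads are not given in the sources used here. The deposited FPKM values equal counts divided by a gene length and the library total, with the length constant between libraries to a relative difference of 8.3e-08. For 32 of 46 core copies without an annotated UTR that length was over 1 base longer than the WBcel235 gene, so the FPKM of core copies depends on gene models not used here. Adjusted p-values were also read from the authors' deposited comparison.

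Symbols and coordinates came from Ensembl's WBcel235 annotation, release 115, and RefSeq names by locus tag, which matched all 81 members, since the former gives them 59 distinct symbols. WBcel235 need not be the authors' build.

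Counts were tested with edgeR 4.0.16 in R 4.3.3 (TMM scaling, filterByExpr, robust quasi-likelihood fit, no covariate). CPM values are TMM-scaled. Standard errors come from the spread of log2(CPM + 0.5) within ages, not from the fit that gave the fold changes. Below the added 0.5 CPM that spread narrows. This held for his-18, his-17 and his-70 at day 10, and for hil-6, his-67, his-31, his-32 and his-63 in L4. The standard errors of such genes understate the error of the fitted change. The test was also run on simulated counts in which few genes changed. That run does not bear on data in which 85.4% of genes were called. All pairs of libraries differed by more than sampling noise, and day 10 replicates 1 and 3 were the farthest apart within an age. The named genes were every linker histone and core variant, the 8 core copies with the highest mean FPKM, the 4 largest log2 fold changes among called core copies in each direction, and the deposition and S phase lists. The members and lists were chosen with earlier results of these data known. Alternatives were other scalings, other filters, a fit without the robust option, a replicate block, each library left out, DESeq2 1.42.0 and counts summed over copies with 1 symbol.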

Additional observations from a re-analysis of the deposited data

How the results depend on the processing

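Numbers of histone genes called kept close to 19 higher and 15 lower. They were 17 and 18 with upper-quartile factors, 21 and 13 with DESeq2's size factors, 19 and 17 with no filter, 18 and 14 at 1 CPM in 3 libraries, and 21 and 14 with DESeq2's Wald test. The calls of 4 histone genes changed with DESeq2's size factors and of 5 with upper-quartile factors. With each library left out the numbers ranged from 18 to 20 and from 13 to 16. All genes called ranged from 13248 to 14159 in those fits. Of 56 named genes with a value, 50 kept direction and side of the threshold in every setting in which they were tested. Among these, hil-6 did not pass the filter of 1 CPM in 3 libraries. The exceptions were his-35, his-41, hil-2, hil-7 and hil-3, given above, and hil-8, which was −0.06 with upper-quartile factors, where hil-3 was −0.19. Leaving out a library also changed calls outside the named genes. The log2 fold change of his-2, −1.40, was −1.22 without L4 replicate 1 (adjusted p = 0.067 with edgeR), and that of his-38, −0.67, was −1.15 without day 10 replicate 1 (adjusted p = 0.00768).

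Class medians moved more. For core copies the median log2 fold change of −0.09 was −0.54 with upper-quartile factors, 0.07 with DESeq2's size factors, −0.45 with no filter, −0.37 at 1 CPM, −0.35 with DESeq2's Wald test and −0.29 to 0.00 with a library left out, so it has no stable direction. For variants 1.52 became 1.69 (DESeq2's size factors), 1.07 (upper-quartile factors), 0.13 (no filter, with his-69) and 0.30 (Wald test, with his-69), and 1.47 to 1.55 with a library left out. For linkers 1.03 became 0.58 with upper-quartile factors and 0.92 to 1.21 with a library left out. Scaling by DESeq2 put the median of all genes at 0.00, and upper-quartile scaling put it at −0.62, which bears on small changes. With the replicate number as a block, 19 histone genes were higher and 15 lower, of 13397 genes called. Deviations from the age means correlated at 0.019 to 0.02 between libraries of the same number and at −0.016 to −0.005 between the others. The labels do not pair the samples, and correlations this small do not settle whether the numbers do.

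Copies with under 10 counts, and copies that share reads, limit what single-gene values can show.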
